A study of Nicotiana plumbaginifolia and Nicotiana benthamiana and Nicotiana rustica with 81 samples.

Results

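The nectary of Nicotiana glauca, tree tobacco, was compared at flower stage 9 with flower stage 6. The libraries of this comparison were chosen by their labels alone, and the 6 libraries (3 at stage 9 and 3 at stage 6) are part of 81 in the series, which covers floral nectaries of 6 Nicotiana species and other tissues of N. plumbaginifolia. Of the 38230 reference transcripts in the deposited table, the 17755 with an authors' mean of 50 or more in either stage were tested. Stage 9 holds immature nectaries shortly before secretion, and stage 6 holds younger immature nectaries at the start of what the submitters call a metabolic switch. Both groups are wild-type plants of line TW-54 (PI-282690), grown in pots under 16 h of light and 8 h of dark with no treatment, and their nectaries were dissected by hand.

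Floral nectaries are small glands that secrete a sugar solution to attract pollinators. In Nicotiana they are known to store starch while they develop and to break it down around anthesis. Sucrose is then made in the gland, leaves the cells through the transporter SWEET9 and is split outside the cells by a cell wall invertase, a route worked out in Arabidopsis and Nicotiana attenuata. In ornamental tobacco the gland also fills with beta-carotene, and it secretes defence proteins called nectarins, whose genes the transcription factor MYB305 activates.

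Values are the authors' means of normalized counts, with the SD over 3 libraries, and a change is log2 of the stage 9 mean plus 1 over the stage 6 mean plus 1. Whether the 3 libraries came from separate plants is not stated, so p-values measure only the spread between these libraries, which may be technical. That spread was small. The median SD was 5.2% of the mean at stage 9 and 6.06% at stage 6. The SD lay under the square root of the mean in 59.4% of transcripts at stage 9 and 51.6% at stage 6, where counting error alone would give 63.2% if 1 normalized count were 1 read. By limma's moderated test on these summary values, 12582 transcripts (70.9%) passed an adjusted p of 0.05, of which 6927 rose (39.0%) and 5655 fell (31.9%). Rises made up 55.1% of these calls, but 49.2% with changes centred on their median and 48.2% with equal column totals, so the excess of rises depends on the scaling. With a change of at least 2-fold as well, 999 rose (5.63%) and 914 fell (5.15%). The median change of all transcripts tested was 0.06. The reads were matched to transcripts of N. tabacum, a species with gene copies from 2 parents, so reads of 1 N. glauca gene can be split over near-identical transcripts.

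The nectary markers were present at both stages. CRABS CLAW-like (XM_016610040.1), the YABBY factor needed to form nectaries, had a mean of 5490 (SD 178) at stage 9 and 4995 (SD 174) at stage 6, a change of 0.14 (SE 0.04, limma adjusted p = 0.00426) that no longer passed when changes were centred on their median. Among ovule markers, the transcripts matched to STK summed to 163 at stage 9 and 93 at stage 6, and those matched to INO and BEL1 were listed at 0 at both stages. The STK sum in N. plumbaginifolia ovary was 2835. All 4 pistil-specific extensin transcripts were listed at 0 at both stages, and transcripts described as pollen-specific summed to 6842 at stage 9 and 6816 at stage 6. The petal and vascular lists summed to 1554 and 398 at stage 9, and to 1485 and 411 at stage 6. The part of ovule RNA in the results was not tested.

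The sugar export carrier of nectaries rose strongly. NEC1-like (XM_016615427.1), the transcript matched to SWEET9 that carries sucrose out of nectary cells, had a mean of 34157 (SD 392) at stage 9, against 2152 (SD 69) at stage 6. The change was 3.99 (SE 0.03, limma adjusted p = 2.21e-21), and the sum over the 3 transcripts of that locus changed by the same amount. In bulk tissue, more expressing cells and more RNA per cell cannot be told apart. Of the 19 tested members of the list for sugar export and sucrose synthesis, 13 rose and 2 fell, with a median change of 0.42. These shares were 68.4% and 10.5%, against 39.0% and 31.9% of all transcripts. The rises with a change of 2-fold or more numbered 4 (21.1%, against 5.63%), and no member fell by as much.

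Other members of the SWEET family, which move sugars across membranes, changed less. The transcript matched to SWEET11 (XM_016591710.1, described as SWEET10-like) rose to 655 (SD 29) at stage 9, against 287 (SD 11) at stage 6. The most abundant transcript matched to SWEET10 (XM_016615819.1, described as SWEET12-like) rose to 2790 (SD 76) at stage 9, against 1898 (SD 171) at stage 6, and the other 3 tested transcripts of that locus rose as well, by 0.42 to 0.63. Sucrose-phosphate synthase, which makes the precursor of sucrose, split by isoform. Its most abundant transcript (XM_016579794.1) was slightly lower, with 3026 (SD 34) at stage 9 and 3332 (SD 105) at stage 6, a change of -0.14. By contrast the isoform 2 transcript XM_016600875.1 rose to 602 (SD 14) at stage 9, against 227 (SD 11) at stage 6, and its relative XM_016607051.1 to 268 (SD 5) at stage 9, against 124 (SD 9) at stage 6. The transcripts of sucrose-phosphate phosphatase, the enzyme that completes sucrose synthesis, rose by 0.82 (XM_016645471.1) and 0.22 (XM_016587022.1).

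Sucrose-cleaving enzymes outside and inside the cell rose together at their most abundant transcripts. The cell wall invertase CWINV4-like (XM_016593154.1), which splits secreted sucrose, had a mean of 16465 (SD 511) at stage 9, against 5415 (SD 244) at stage 6, a change of 1.60 (SE 0.04, limma adjusted p = 6.96e-16). The second tested transcript of that locus (KF308284.1) changed by 1.62. Sucrose synthase (XM_016604254.1), which splits sucrose inside the cell, had 67116 (SD 952) at stage 9 and 33070 (SD 720) at stage 6, a change of 1.02. A second transcript of the same locus (KF977579.1) had 8592 (SD 179) at stage 9 and 3980 (SD 318) at stage 6. In all, 8 of 14 tested members rose and 2 fell (57.1% and 14.3%, against 39.0% and 31.9% of all transcripts). Changes of 2-fold or more numbered 5, all upward (35.7%, against 5.63%). All 5 were transcripts of CWINV4 or SUS4, so 2 loci carry that count. The most abundant SUS3 transcript (XM_016608006.1) had 2854 at stage 9 and 2759 at stage 6 and did not pass, and the vacuolar invertase VINV1 (XM_016634894.1) rose by 0.25.

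**Figure D1:**
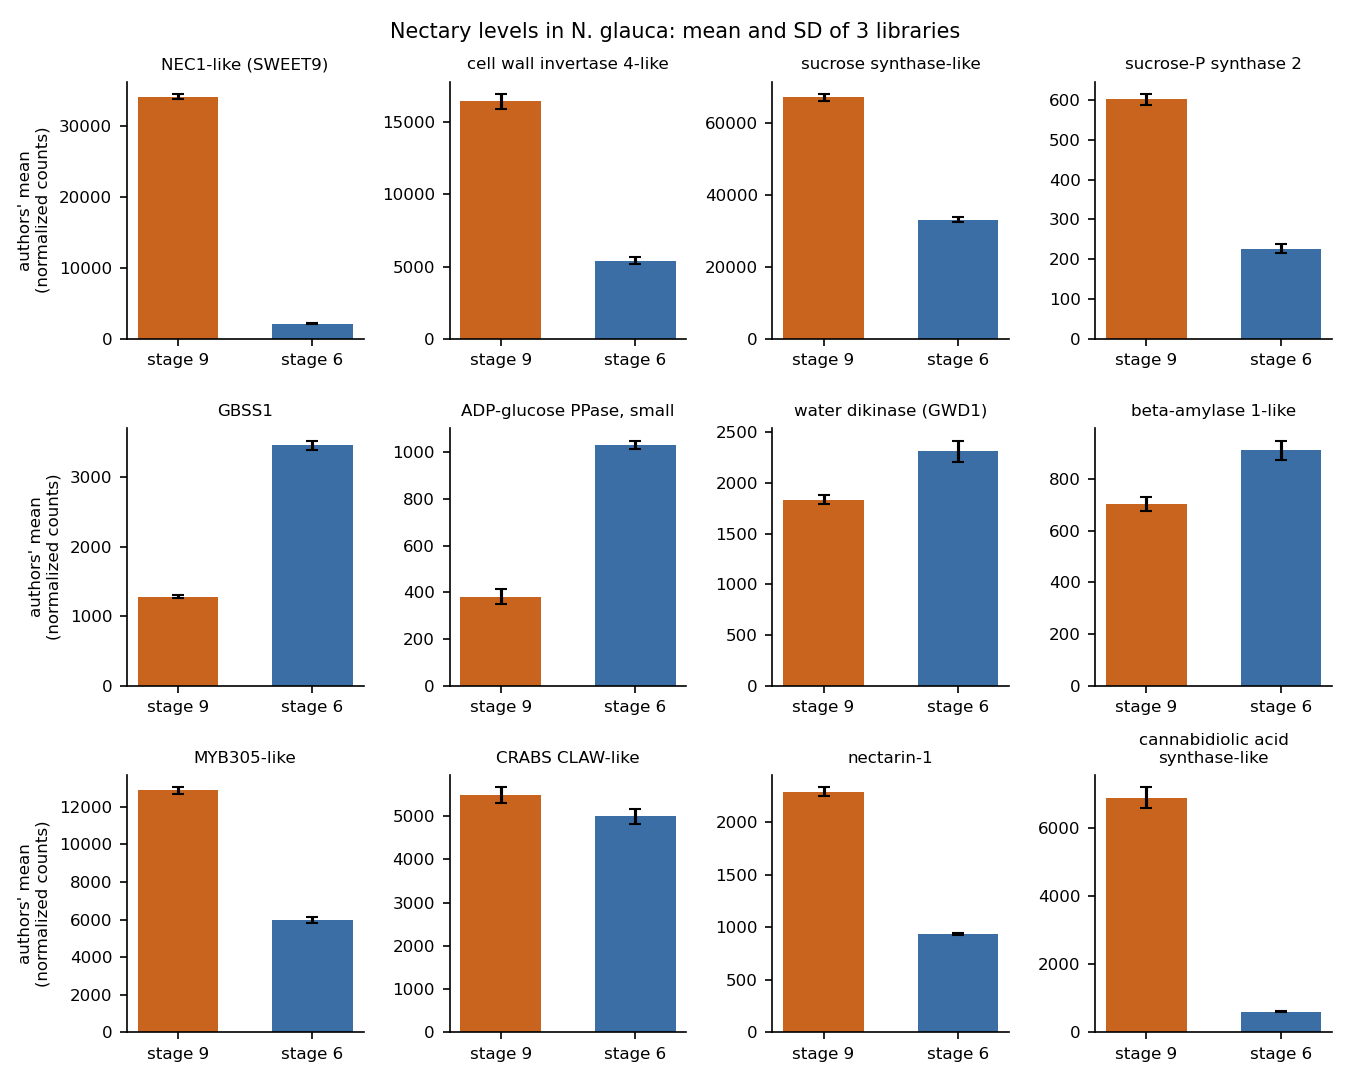
Authors' means of normalized counts (linear axes from 0, one scale per panel) at stage 9 (left bars) and stage 6 (right bars) for 12 transcripts, with the SD over 3 libraries as error bars. NEC1-like stands at 34157 at stage 9 and 2152 at stage 6, while granule-bound starch synthase 1 stands at 1277 at stage 9 and 3457 at stage 6.

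Starch synthesis genes moved in both directions, with 11 rises and 15 falls of 31 tested transcripts and a median of -0.16. These shares were 35.5% and 48.4%, against 39.0% and 31.9% of all transcripts. The small subunit of ADP-glucose pyrophosphorylase (XM_016594199.1) had 381 (SD 33) at stage 9 and 1032 (SD 19) at stage 6, a change of -1.44 (SE 0.06, limma adjusted p = 1.15e-12). Granule-bound starch synthase 1 (XM_016577486.1), which makes amylose, had 1277 (SD 22) at stage 9 and 3457 (SD 71) at stage 6, also a change of -1.44. The large subunits APL4 and APL2 fell by 0.94 and 0.83, and the soluble synthase SS2 (XM_016598590.1) by 0.96.

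Several carriers that bring substrate into the plastid were among the rises. The most abundant ATP/ADP carrier transcript of locus NTT2 (XM_016615182.1) rose to 4876 (SD 19) at stage 9, against 2835 (SD 61) at stage 6. A second transcript of that locus (XM_016636246.1, uncharacterized in its own description) rose to 179 (SD 4) at stage 9, against 55 (SD 11) at stage 6, while another (XM_016660307.1) fell by 0.34. The glucose-6-phosphate carrier GPT1 (XM_016635638.1) rose to 3174 (SD 30) at stage 9, against 1725 (SD 35) at stage 6, and the branching enzyme BE3 (XM_016614346.1) rose to 3106 (SD 94) at stage 9, against 1743 (SD 57) at stage 6.

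No tested starch breakdown transcript changed by 2-fold. Of 28 tested, 5 rose and 13 fell (17.9% and 46.4%, against 39.0% and 31.9% of all transcripts). The changes lay between -0.96 and 0.84. Water dikinase GWD1 (XM_016595549.1), which phosphorylates starch before it is degraded, had 1835 (SD 46) at stage 9 and 2311 (SD 107) at stage 6, a change of -0.33. Beta-amylase 1-like (XM_016660106.1), which releases maltose, had 704 (SD 27) at stage 9 and 911 (SD 38) at stage 6, a change of -0.37. All 4 tested transcripts of that locus fell. Plastid alpha-glucan phosphorylase, locus PHS1, fell in all 3 transcripts tested, by up to 0.96 (XM_016604217.1). The most abundant beta-amylase 3-like transcript (XM_016591116.1) had 48 (SD 2) at stage 9 and 28 (SD 2) at stage 6, below the level set for testing. Another of that locus (XM_016638844.1), also below that level, had 22 (SD 0) at stage 9 and 7 (SD 2) at stage 6. The beta-amylase of locus BAM9 (KJ808738.1), a catalytically inactive member in Arabidopsis, rose by 0.84.

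Of 53 tested regulators of flower and nectary identity, 18 rose and 19 fell (34.0% and 35.8%), and 3 rose and 2 fell by 2-fold or more (5.66% and 3.77%), shares near those of all transcripts tested. MYB305-like (XM_016582512.1) was among the rises, with 12871 (SD 166) at stage 9 and 5977 (SD 171) at stage 6, a change of 1.11 (SE 0.03, limma adjusted p = 1.85e-14). A second MYB305-like transcript (XM_016644811.1) rose by 0.32 and one of low level (XM_016651243.1) fell by 0.91. An APETALA2 transcript (KM205812.1), from a class of floral organ regulators, rose to 1075 (SD 24) at stage 9, against 468 (SD 19) at stage 6. AGL6-like (XM_016644825.1), a MADS factor, rose to 55 (SD 10) at stage 9, against 17 (SD 4) at stage 6.

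The largest fall of the regulators was that of BPE-like (XM_016625665.1), whose Arabidopsis relative limits petal cell growth, with 481 (SD 30) at stage 9 and 2576 (SD 21) at stage 6, a change of -2.42. Another transcript of that locus (XM_016598247.1, described as bHLH79-like) rose to 2519 (SD 65) at stage 9, against 1963 (SD 63) at stage 6. YABBY 5-like (XM_016602477.1) had 7868 (SD 210) at stage 9 and 7688 (SD 342) at stage 6 and did not pass the test, with a change of 0.03 that turned to -0.02 when centred on the median. AGAMOUS-like (XM_016580095.1), matched to the carpel identity factor SHP1, rose to 5187 (SD 15) at stage 9, against 4193 (SD 196) at stage 6.

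Among nectarins, nectarin-1 (XM_016580669.1), a germin-like superoxide dismutase of tobacco nectar, had 2290 (SD 42) at stage 9 and 937 (SD 11) at stage 6, a change of 1.29 (SE 0.04, limma adjusted p = 2.52e-14). The other 2 tested nectarin-1-like transcripts did not pass, with 226 (XM_016657282.1) and 55 (XM_016601497.1) at stage 9 and 218 and 61 at stage 6. The nectarin-3-like transcript XM_016588226.1 had 8 (SD 1) at stage 9 and 1 (SD 1) at stage 6, too low to test. Cannabidiolic acid synthase-like (XM_016601690.1), a FAD-binding protein of the berberine bridge enzyme family, had 6903 (SD 303) at stage 9 and 614 (SD 13) at stage 6, a change of 3.49 (SE 0.04, limma adjusted p = 1.46e-19). A reticuline oxidase-like member of the same family (XM_016623365.1) was slightly lower, with 20387 (SD 535) at stage 9 and 24575 (SD 562) at stage 6. Ornithine decarboxylase (AF127242.1), which supplies putrescine for nicotine synthesis, fell to 5571 (SD 74) at stage 9, against 9647 (SD 186) at stage 6. Over the 10 tested members of that list 4 rose and 5 fell.

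Nearly the whole carotenoid route rose together. Of 32 tested transcripts 27 rose and 2 fell (84.4% and 6.25%, against 39.0% and 31.9% of all transcripts), with a median change of 0.99. Rises of 2-fold or more numbered 15 (46.9% of those tested, against 5.63%). By locus, 7 of 18 sums were called at 2-fold or more, all upward, against 4.21% of all loci tested. In the plastid pathway that makes the isoprene units, DXS (FN429979.1), the entry enzyme, had 10884 (SD 251) at stage 9 and 6033 (SD 72) at stage 6, and DXR, HDS and HDR rose by 0.25 to 1.00. Phytoene synthase (XM_016579974.1), the first committed step, had 2411 (SD 43) at stage 9 and 1184 (SD 2) at stage 6, a change of 1.03 (SE 0.04, limma adjusted p = 3.04e-13). All 4 phytoene synthase transcripts tested rose, by 0.95 to 1.66.

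The desaturases followed, with PDS (XM_016610712.1) at 7156 (SD 96) at stage 9 and 3172 (SD 130) at stage 6, and ZDS (XM_016658599.1) at 4884 (SD 35) at stage 9 and 2456 (SD 80) at stage 6. The transcript matched to lycopene beta-cyclase, which makes beta-carotene, is described as neoxanthin synthase-like (XM_016606198.1) and rose to 2260 (SD 73) at stage 9, against 811 (SD 20) at stage 6. A transcript matched to OR (XM_016596609.1), which stabilises phytoene synthase and promotes carotenoid storage in chromoplasts, rose to 5598 (SD 219) at stage 9, against 2471 (SD 95) at stage 6. The non-heme hydroxylases of beta-carotene gave no call. Beta-carotene hydroxylase 2-like (XM_016611556.1) had 461 (SD 10) at stage 9 and 499 (SD 20) at stage 6, BCH1 (JQ410446.1) had 212 (SD 16) and 202 (SD 5) in the same order, and neither passed the test. A P450 ring hydroxylase of the lutein branch, CYP97A3 (XM_016646486.1), rose to 1230 at stage 9, against 701 at stage 6. The enzyme after the hydroxylases, zeaxanthin epoxidase (XM_016620556.1), rose to 4988 (SD 58) at stage 9, against 1928 (SD 55) at stage 6.

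Carotenoid cleavage dioxygenase 1, which cuts carotenoids into volatile fragments, rose in all 4 tested transcripts. KC747730.1 had 88275 (SD 1263) at stage 9 and 42812 (SD 358) at stage 6, and XM_016643301.1 had 1807 (SD 145) at stage 9 and 393 (SD 25) at stage 6, a change of 2.198. The 2 falls of the list were violaxanthin de-epoxidase (XM_016601061.1, -0.46) and a weakly expressed GGPPS11 transcript (XM_016580165.1, -0.87). A transcript outside the list, chosen after its values were seen, is described as violaxanthin de-epoxidase-like but matches another locus. This one (XM_016610647.1) had 7922 (SD 60) at stage 9 and 763 (SD 11) at stage 6, a change of 3.37.

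**Figure D2:**
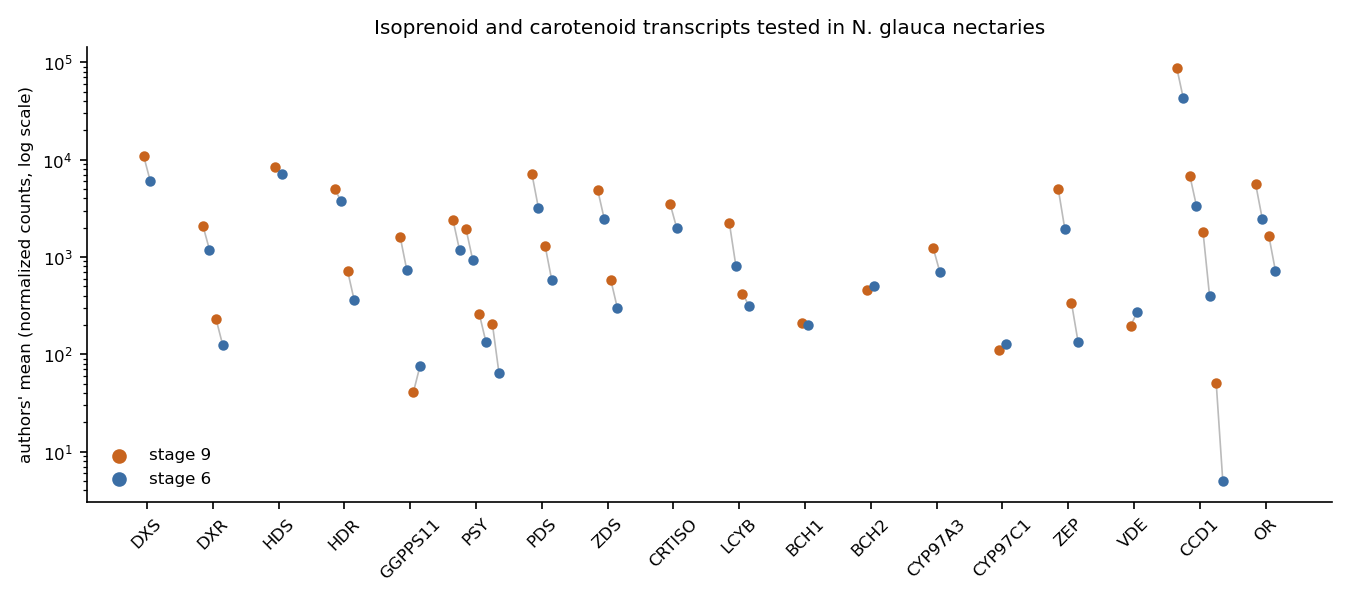
Authors' means of normalized counts (log axis) of the 32 tested isoprenoid and carotenoid transcripts at stage 9 (left point of each pair) and stage 6 (right point), ordered along the pathway from DXS to the cleavage enzyme CCD1 and the storage factor OR. Stage 9 lies above stage 6 for 27 called transcripts, while the hydroxylase BCH2 stands at 461 at stage 9 and 499 at stage 6.

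Cell division genes fell. Of 29 tested transcripts of DNA replication and mitosis, 5 rose and 23 fell, with a median of -0.70. These shares were 17.2% and 79.3%, against 39.0% and 31.9% of all transcripts. PCNA (AJ012662.1), the clamp that holds DNA polymerase, had 654 (SD 28) at stage 9 and 1458 (SD 21) at stage 6. The 8 tested MCM transcripts, subunits of the replicative helicase, all fell, by 0.73 to 1.29. Ribonucleotide reductase, which makes the DNA precursors, fell in its large subunit (XM_016589669.1, 1627 at stage 9 and 2651 at stage 6) and its small subunit (XM_016631530.1, 1129 at stage 9 and 2070 at stage 6). The mitotic kinase CDKB1;2 (AF289466.1) fell to 79 (SD 13) at stage 9, against 186 (SD 10) at stage 6. The 5 rises were transcripts of D-type cyclins, a B-type cyclin and Aurora kinase 1. Of these, CycD3;1 (AB243209.1), a cyclin that promotes entry into the cycle, had 89 (SD 8) at stage 9 and 32 (SD 9) at stage 6. Core histone transcripts, needed to package new DNA, fell in 44 of 52 cases (84.6%) and rose in 3 (5.77%), with a median of -0.65. Only 1 histone transcript fell by 2-fold or more (1.92%, against 5.15% of all transcripts). The most abundant at stage 6, H2A.1 (XM_016645723.1), had 5139 (SD 196) at stage 9 and 8564 (SD 472) at stage 6. The most abundant at stage 9, the replacement histone H3.3 (XM_016617784.1), rose to 5683 (SD 140) at stage 9, against 4869 (SD 301) at stage 6.

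Photosynthesis transcripts were low and mostly fell. Of the 119 matched transcripts of light harvesting and the photosystems only 17 reached the level for testing. Of these 17, 15 fell and 1 rose (88.2% and 5.88%, against 31.9% and 39.0% of all transcripts), with a median of -0.72. The summed means of all 119 were 2236 at stage 9 and 3215 at stage 6. CP26 (XM_016644018.1), an antenna protein, had 310 (SD 11) at stage 9 and 428 (SD 12) at stage 6. The small subunit of RuBisCO (XM_016585367.1), the carbon-fixing enzyme, had 1584 (SD 37) at stage 9 and 2018 (SD 132) at stage 6. Of the 5 Calvin cycle transcripts tested, 2 rose and 2 fell, none by 2-fold.

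The entry enzymes of phenylpropanoid synthesis, which lead to lignin and flavonoids, fell. Phenylalanine ammonia-lyase (XM_016625506.1) had 2341 (SD 61) at stage 9 and 5840 (SD 210) at stage 6, a change of -1.32. Cinnamate 4-hydroxylase (XM_016638060.1) had 314 (SD 21) at stage 9 and 2051 (SD 102) at stage 6, a change of -2.70 (SE 0.06, limma adjusted p = 1.5e-16). 4-Coumarate-CoA ligase 1 (XM_016606706.1) had 388 (SD 8) at stage 9 and 2104 (SD 72) at stage 6, a change of -2.44. Some copies of the same enzymes fell less, such as a second cinnamate 4-hydroxylase (DQ350352.1) at 1644 (SD 10) at stage 9 and 1759 (SD 57) at stage 6. In the list as a whole 13 of 18 fell and 3 rose (72.2% and 16.7%, against 31.9% and 39.0% of all transcripts). The rises were those of chalcone isomerase-like CHIL (XM_016589355.1, 841 at stage 9 and 365 at stage 6), anthocyanidin synthase (AB723683.1, 56 at stage 9 and 15 at stage 6) and UDP-glycosyltransferase 92A1-like (XM_016620755.1, 266 at stage 9 and 89 at stage 6), which is matched to UGT78D2 in Arabidopsis. The transcript described as flavonoid 3-O-glucosyltransferase, of the same match (AB723685.1), fell to 127 at stage 9, against 390 at stage 6.

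Jasmonate synthesis fell at successive steps. The 13-lipoxygenase LOX3 (XM_016590970.1), which oxygenates linolenic acid, had 870 (SD 33) at stage 9 and 3266 (SD 134) at stage 6, a change of -1.91 (SE 0.04, limma adjusted p = 5.85e-16). Allene oxide synthase (XM_016585976.1) had 110 (SD 7) at stage 9 and 273 (SD 12) at stage 6. Allene oxide cyclase 4-like (XM_016586618.1) had 1444 (SD 42) at stage 9 and 3633 (SD 132) at stage 6, and OPR3 (XM_016592560.1), the reductase after it, had 572 (SD 15) at stage 9 and 1525 (SD 49) at stage 6. NtJAZ3 (AB433898.1), a JAZ repressor of jasmonate signalling, fell to 1952 (SD 36) at stage 9, against 3095 (SD 95) at stage 6, while a TIFY 6B-like member of the family (XM_016583627.1) rose to 543 at stage 9, against 342 at stage 6. By contrast JAR1 (XM_016579182.1), which makes the active isoleucine conjugate, rose to 511 (SD 12) at stage 9, against 203 (SD 10) at stage 6. Over the 20 tested members 6 rose and 9 fell. TIFY 5A-like (XM_016621532.1), a member of the JAZ family outside the list, was among the 10 largest falls of the comparison, with 62 (SD 8) at stage 9 and 499 (SD 22) at stage 6.

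**Figure D3:**
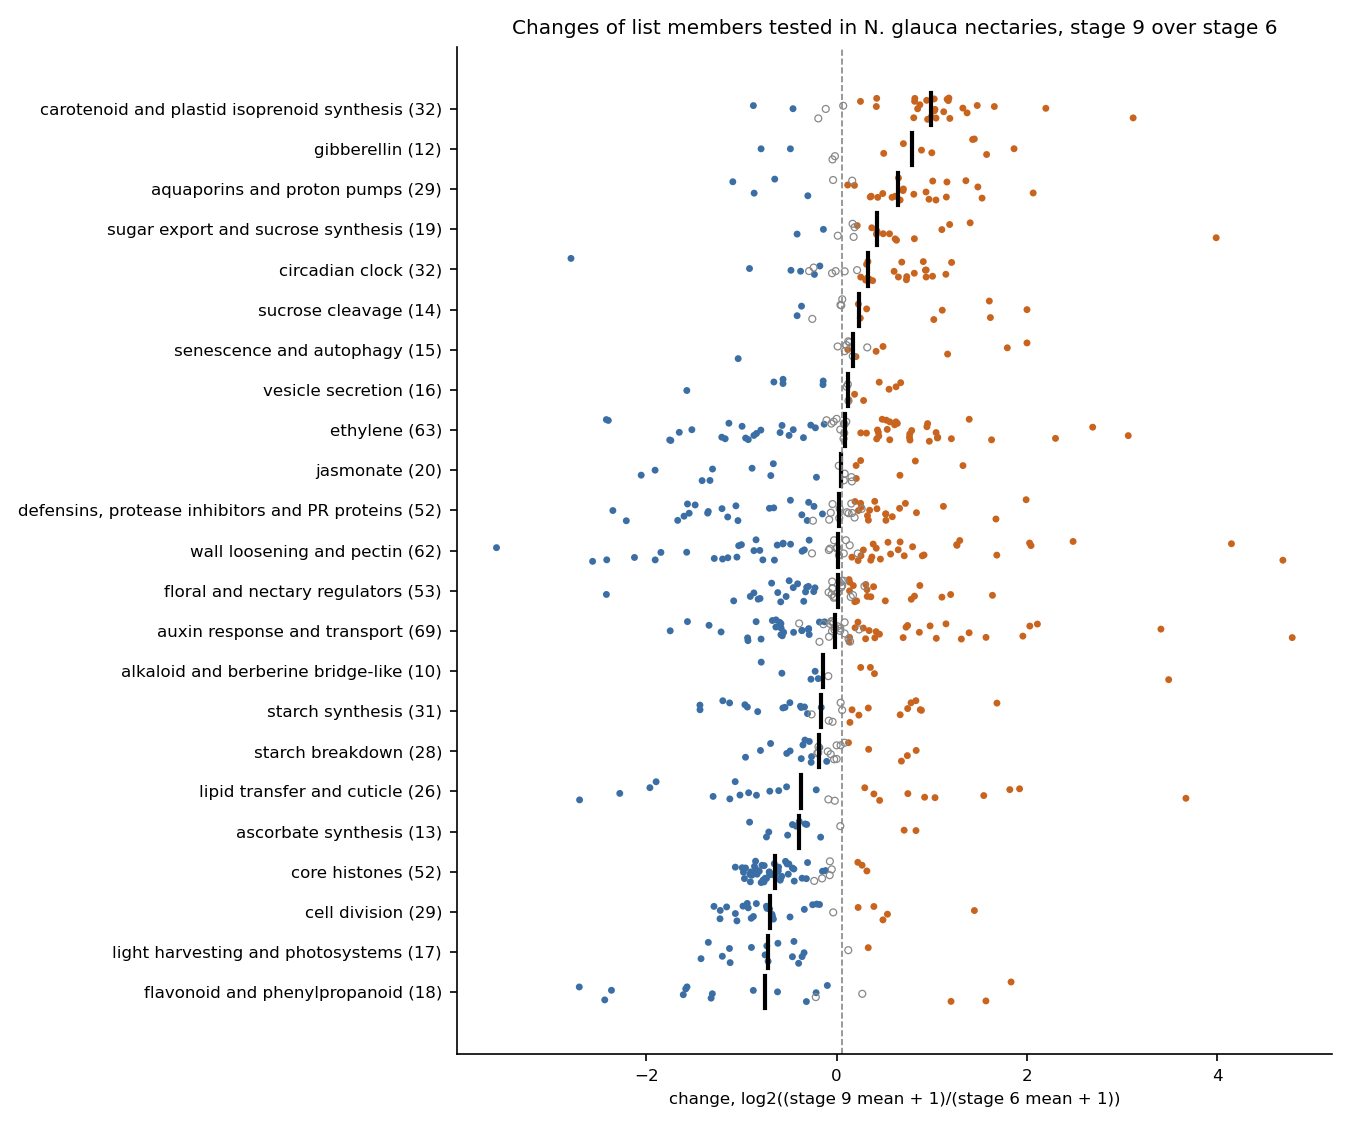
Changes from stage 6 to stage 9 on the log2 scale (x axis) for every tested member of the 23 gene lists with at least 10 of them, with the number tested in brackets. Filled points passed the limma test, open points did not, black bars are list medians, and the dashed line is the median of all transcripts tested, 0.06. The carotenoid list lies furthest right with a median of 0.99, and the phenylpropanoid list furthest left with -0.75.

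Of 12 tested gibberellin transcripts 8 rose and 2 fell (66.7% and 16.7%, against 39.0% and 31.9% of all transcripts), with a median of 0.80. The rises included the receptors GID1B-like and GID1C-like. GID1B-like rose in XM_016621320.1 (664 at stage 9 and 246 at stage 6) and XM_016622078.1 (283 at stage 9 and 77 at stage 6). GID1C-like rose in XM_016596771.1 (258 at stage 9 and 94 at stage 6). Another GID1B-like transcript (XM_016659260.1) had 163 (SD 8) at stage 9 and 165 (SD 21) at stage 6 and did not pass. Gibberellin 2-beta-dioxygenase 8-like (XM_016602560.1) was also among the rises, with 61 (SD 4) at stage 9 and 43 (SD 6) at stage 6. The DELLA repressor GAI1-like (XM_016585899.1) had 889 (SD 30) at stage 9 and 916 (SD 11) at stage 6 and did not pass. A second GAI1-like transcript (XM_016597187.1) rose to 526 (SD 10) at stage 9, against 323 (SD 20) at stage 6, and a GAI-like one (XM_016582700.1) fell to 64 (SD 7) at stage 9, against 90 (SD 11) at stage 6. In the auxin list 25 rose and 25 fell of 69, or 36.2% each, near the shares of all transcripts tested. The repressor IAA8-like (XM_016610251.1) rose to 17792 (SD 123) at stage 9, against 9007 (SD 150) at stage 6. A pair of SAUR genes, rapid auxin-response genes described as auxin-induced protein 15A-like, rose most, XM_016636784.1 to 413 (SD 23) at stage 9, against 14 (SD 3) at stage 6, and XM_016621054.1 to 243 (SD 24) at stage 9, against 22 (SD 7) at stage 6.

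Ethylene genes also went both ways, with 30 rises and 23 falls of 63 (47.6% and 36.5%, against 39.0% and 31.9% of all transcripts). The last enzyme of ethylene synthesis, ACC oxidase, rose in XM_016618795.1 to 9347 (SD 360) at stage 9, against 4842 (SD 114) at stage 6, and in XM_016609740.1 to 91 (SD 9) at stage 9, against 10 (SD 0) at stage 6, while another transcript of the same locus (XM_016633985.1) fell to 40 (SD 3) at stage 9, against 77 (SD 9) at stage 6. The falls of 2-fold or more were 8 transcripts of ERF or CRF transcription factors and 1 ACC synthase, while another ACC synthase (XM_016591498.1) rose to 63 at stage 9, against 12 at stage 6.

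Clock transcripts rose more often than they fell, in 20 against 6 of 32 (62.5% and 18.8%, against 39.0% and 31.9% of all transcripts). GIGANTEA (XM_016647776.1), an evening gene, had 2319 (SD 56) at stage 9 and 1046 (SD 32) at stage 6. One transcript described as response regulator-like APRR1 (XM_016653577.1), another name of the clock gene TOC1, has no matched locus. It fell to 735 (SD 36) at stage 9, against 5092 (SD 325) at stage 6, a change of -2.79 (SE 0.05, limma adjusted p = 2.04e-17). A second APRR1 transcript (XM_016645054.1), the one matched to the TOC1 locus, rose to 816 (SD 29) at stage 9, against 463 (SD 25) at stage 6. The sources used here do not give the time of day of dissection.

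Of 62 tested wall genes 26 rose and 25 fell (41.9% and 40.3%). The rises of 2-fold or more numbered 9 (14.5%, against 5.63% of all transcripts) and the falls 13 (21.0%, against 5.15%). Pectinesterase 2-like (XM_016589414.1), which de-esterifies pectin, had 1329 (SD 71) at stage 9 and 74 (SD 5) at stage 6, a change of 4.15 (SE 0.07, limma adjusted p = 1.1e-17). Xyloglucan endotransglucosylase/hydrolase 23 (XM_016616706.1), which cuts and rejoins xyloglucan, had 489 (SD 40) at stage 9 and 18 (SD 0) at stage 6. Expansins or expansin-like proteins, which loosen walls during growth, made up 7 of the 13 falls of 2-fold or more, with expansin-A1-like (XM_016630449.1) at 164 at stage 9 and 879 at stage 6, while 3 other expansin transcripts rose by less. A polygalacturonase (XM_016579460.1), which cleaves pectin, fell to 61 (SD 19) at stage 9, against 737 (SD 23) at stage 6.

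The lipid-transfer list, proteins that bind lipids outside the cell and enzymes of the cuticle, held a few abundant transcripts that differed in direction. The most abundant, pEARLI1-like lipid transfer protein 1 (XM_016609508.1), was slightly lower, with 54950 (SD 817) at stage 9 and 63742 (SD 1218) at stage 6. A non-specific lipid-transfer protein 2-like transcript (XM_016646764.1) had 54720 (SD 1602) at stage 9 and 18740 (SD 792) at stage 6, a change of 1.55, and 2 more (XM_016625073.1 and XM_016590263.1) rose by 1.92 and 1.82. Over the whole list 14 fell and 10 rose of 26 (53.8% and 38.5%, against 31.9% and 39.0% of all transcripts). Among the falls was the cutin enzyme LACS2 (XM_016599909.1, 118 at stage 9 and 442 at stage 6).

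Water channels and proton pumps rose. Of 29 tested 23 rose and 4 fell (79.3% and 13.8%, against 39.0% and 31.9% of all transcripts), with a median of 0.65. The plasma membrane aquaporin PIP1-2 (XM_016602745.1) had 384 (SD 18) at stage 9 and 91 (SD 4) at stage 6, a change of 2.07 (SE 0.08, limma adjusted p = 3.6e-13), and the vacuolar TIP4-1-like (XM_016585984.1) had 671 (SD 6) at stage 9 and 232 (SD 30) at stage 6. The most abundant plasma membrane proton pump (XM_016602228.1), which energises transport, was barely higher, with 6037 (SD 37) at stage 9 and 5570 (SD 210) at stage 6. Secretory vesicle SNAREs and exocyst subunits showed 7 rises and 6 falls of 16, shares near those of all transcripts tested, with syntaxin AF112863.1 lower at 84 (SD 7) at stage 9, against 252 (SD 6) at stage 6.

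Defence proteins fell in 21 and rose in 19 of 52 tested transcripts, but the falls of 2-fold or more numbered 13 and the rises 3. Beta-1,3-glucanases made up 7 of these falls. A thaumatin-like protein (XM_016629028.1) fell to 188 (SD 10) at stage 9, against 963 (SD 79) at stage 6. An osmotin-like protein (XM_016650867.1), an antifungal member of the same family, rose to 8474 (SD 31) at stage 9, against 2131 (SD 191) at stage 6. Defensin J1-2-like (XM_016592051.1) rose to 18120 (SD 144) at stage 9, against 10129 (SD 455) at stage 6. The tobacco defensin DEF1 (JQ654634.1), matched to the same locus, was slightly lower, with 8774 (SD 190) at stage 9 and 9727 (SD 615) at stage 6. Of 13 ascorbate synthesis transcripts 10 fell and 2 rose (76.9% and 15.4%, against 31.9% and 39.0% of all transcripts). The 2 rises were both of VTC2, the controlling step, whose most abundant transcript (XM_016651960.1) had 8248 (SD 171) at stage 9 and 4627 (SD 52) at stage 6. In the senescence list, 7 of 15 rose and 1 fell (46.7% and 6.67%, against 39.0% and 31.9% of all transcripts). The most abundant rise was SAG21-like (XM_016587378.1) with 2890 (SD 90) at stage 9 and 833 (SD 66) at stage 6. The 1 fall was of another SAG21 transcript (XM_016656026.1), with 103 (SD 9) at stage 9 and 212 (SD 17) at stage 6.

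Across all transcripts, 193 of those called rose and 96 fell by 4-fold or more. The largest rise under the naming rule was CASP-like protein 1F2 (XM_016628767.1), from a membrane protein family related to Casparian strip scaffolds, with 1005 (SD 17) at stage 9 and 18 (SD 3) at stage 6, a change of 5.73 (SE 0.11, limma adjusted p = 3.87e-17). After the SAUR and wall transcripts above came UDP-glycosyltransferase 82A1-like (XM_016628007.1, with 415 at stage 9 and 25 at stage 6) and, just below it, NEC1-like. Next came a germin-like protein (XM_016631143.1, a change of 3.85) and the chitinase relative chitotriosidase-1-like (XM_016612718.1, 3.81). The aspartic proteinase CDR1-like (XM_016612556.1, 3.56) and the transporter DETOXIFICATION 27-like (XM_016610331.1, 3.54) followed.

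The largest fall under the same rule was that of repetitive proline-rich cell wall protein 1-like (XM_016610534.1), a structural wall protein, with 115 (SD 18) at stage 9 and 1612 (SD 116) at stage 6, a change of -3.80. An L-ascorbate oxidase homolog (XM_016590154.1) fell by 3.71, but the sum over the 5 transcripts of its locus (AT1G76160) changed by -0.26 only, with 1452 at stage 9 and 1743 at stage 6. Further large falls were those of bHLH35-like (XM_016593812.1, -3.34), the F-box protein EID1-like 3 (XM_016620381.1, -3.25), the stress-response factor DREB1F-like (XM_016617902.1, -3.04), a GDSL lipase (XM_016641409.1, -3.18), a metal-binding isoprenylated protein (XM_016646185.1, -3.46) and polyphenol oxidase E-like (XM_016592536.1, -3.10). The last, an enzyme that browns wounded tissue, had 338 (SD 25) at stage 9 and 2905 (SD 149) at stage 6.

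**Figure D4:**
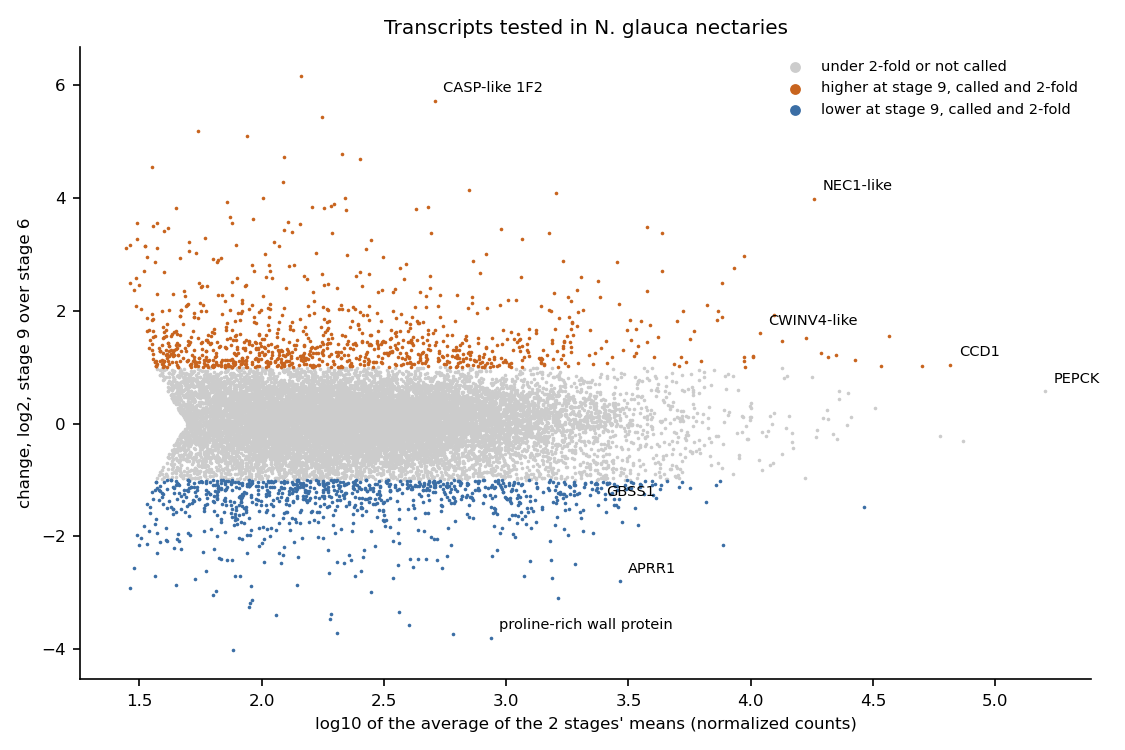
Each point is 1 of the 17755 transcripts tested, with the average level of both stages (x axis, log10 of normalized counts) and the change (y axis, log2 of stage 9 over stage 6). The 999 called rises and 914 called falls of 2-fold or more are coloured, and NEC1-like at 3.99 stands apart among transcripts of high level.

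The described transcripts with the highest stage 9 means, an order that also depends on transcript length, were led by phosphoenolpyruvate carboxykinase (XM_016579669.1), which turns organic acids towards sugar. It had 192020 (SD 5315) at stage 9 and 128865 (SD 759) at stage 6, a change of 0.58. Beside CCD1, sucrose synthase and the lipid-transfer proteins, metallothionein type 2 (XM_016637342.1), a metal-binding protein, rose to 45768 (SD 1973) at stage 9, against 22590 (SD 1502) at stage 6, and soluble inorganic pyrophosphatase (XM_016634631.1) rose to 36826 (SD 294) at stage 9, against 16796 (SD 696) at stage 6. D64052.1, described as cytochrome P450-like TBP, had 66148 (SD 17472) at stage 9 and 81972 (SD 25430) at stage 6 and did not pass. Its SDs exceeded those of the other transcripts of this rank.

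Summing all transcripts matched to 1 Arabidopsis locus gives levels that do not depend on how reads split between copies with that match. Copies with no match or another match stay outside such a sum, and 15816 of the 17755 transcripts tested had a match. Of the 10279 loci tested, 7208 passed (70.1%), and 433 rose (4.21%) and 463 fell (4.50%) by 2-fold or more. Of the 1655 transcripts called at 2-fold with a matched locus, 1076 had a locus sum called at 2-fold in the same direction, while the sum of 78 moved the other way. The sums for phytoene synthase (AT5G17230, 4831 at stage 9 and 2338 at stage 6, over 11 transcripts), CWINV4 (AT2G36190, 17224 at stage 9 and 5662 at stage 6) and SUS4 (AT3G43190, 76372 at stage 9 and 37640 at stage 6) rose by 2-fold or more, and that of GBSS1 (AT1G32900, 1279 at stage 9 and 3457 at stage 6) fell. The locus of the MYB305-like transcripts (AT5G40350), whose sum was 15489 at stage 9 and 8169 at stage 6, changed by 0.92.

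In the authors' deposited table, 6361 transcripts are called different between these stages, 3291 of those tested higher (18.5%) and 3070 lower (17.3%) at stage 9, and limma called all of them. Of the 1913 transcripts called by limma at 2-fold or more, 1594 are also called in the authors' deposited table. The other 319 had a median of 67 for the higher of their 2 means, and the lowest such value among calls in the authors' deposited table was 81. The sources used here do not give the threshold behind those calls.

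Whether N. glauca changed differently from its relatives was tested against the mean change of 4 other nectary profiles, namely N. benthamiana, N. rustica, N. plumbaginifolia and 1 profile that stands in the table for N. bonariensis and again for N. clevelandii, with equal values in all 38230 transcripts, called the joint profile here. The p-values of this test measure the spread between libraries, not the spread between species. They do not show whether N. glauca lies outside the range of the 4 profiles. Of 34000 transcripts tested, the change of 2069 was higher (6.09%) and that of 1508 lower (4.44%) in N. glauca by 1 or more on the log2 scale. With a pseudocount of 10 in place of 1 these numbers were 956 and 1007. Among the 17755 transcripts tested within N. glauca, 944 were higher (5.32%) and 759 lower (4.27%). A transcript listed at 0 at both stages of another profile enters with a change of 0. With a mean of 10 or more in all 10 groups, 8059 transcripts remained, of which 338 were higher (4.19%) and 280 lower (3.47%).

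Sucrose genes were among the differences. CWINV4-like (XM_016593154.1) changed by 1.60 in N. glauca, against -0.74 for N. benthamiana, 0.80 for N. rustica, 0.08 for N. plumbaginifolia and -0.24 for the joint profile, a difference of 1.63 (SE 0.05, limma adjusted p = 2.35e-17). Sucrose synthase (XM_016604254.1) differed by 1.12, with changes in the 4 other profiles of -0.39 to 0.52. NEC1-like (XM_016615427.1) rose in all profiles, by 3.99 in N. glauca, against 1.38 for N. benthamiana, 4.55 for N. rustica, 2.99 for N. plumbaginifolia and 1.64 for the joint profile, and the difference was 1.35. Nectarin-1 (XM_016580669.1) changed by 1.29 in N. glauca, against -0.34 to 0.72 elsewhere. The starch genes GBSS1 (XM_016577486.1) and APS1 (XM_016594199.1) fell further in N. glauca, with differences of -1.26 each, the other changes being -0.82 to 0.32 and -0.42 to 0.08.

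The APRR1 transcript without a matched locus (XM_016653577.1) fell in all profiles, and by less in N. glauca, -2.79, against -3.67 to -5.84 elsewhere. STK (XM_016619520.1), the ovule marker, rose less in N. glauca than the mean of the 4 other profiles, by 0.81, against 2.42 for N. benthamiana, 0.69 for N. rustica, 3.38 for N. plumbaginifolia and 4.93 for the joint profile, a difference of -2.05. That marker therefore moves with the contrast between profiles, and its part in the differences above was not tested.

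Under the naming rule for these differences, the highest was metal tolerance protein 4-like (XM_016623031.1), of a family of metal transporters. It had 213 (SD 11) at stage 9 and 23 (SD 1) at stage 6 in N. glauca, a change of 3.16, against -1.52 to 0.13 elsewhere. Nitrate reductase 2 (XM_016606716.1), the entry enzyme of nitrate assimilation, had 5002 (SD 97) at stage 9 and 686 (SD 28) at stage 6 in N. glauca, against 1798 (SD 168) at stage 9 and 2043 (SD 54) at stage 6 in N. benthamiana. The P450 CYP89A9-like (XM_016578543.1), whose Arabidopsis relative acts in chlorophyll breakdown, had 2722 (SD 212) at stage 9 and 259 (SD 22) at stage 6, and changed by -0.30 to 0.43 elsewhere.

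The lowest difference was that of beta-carotene hydroxylase 2-like (XM_016611556.1), the step that turns beta-carotene into xanthophylls. It changed by -0.11 in N. glauca, against 1.496 for N. benthamiana, 4.50 for N. rustica, 1.95 for N. plumbaginifolia and 4.94 for the joint profile. At stage 9 its mean was 461 (SD 10) in N. glauca, against 5866 (SD 83), 1245 (SD 24), 204 (SD 33) and 2881 (SD 19) in these profiles in the same order. It was the only tested transcript of its locus in N. glauca.

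**Figure D5:**
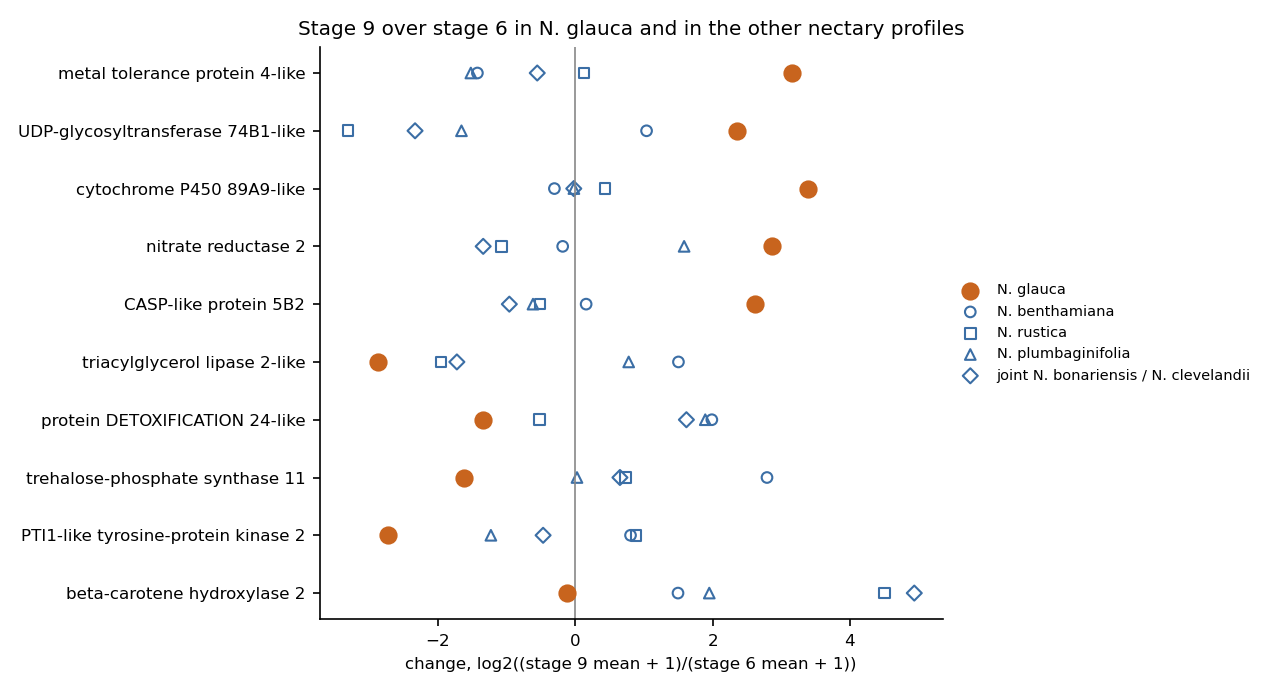
Changes of stage 9 over stage 6 (x axis, log2 scale) in N. glauca (filled circles) and in the other 4 nectary profiles (open symbols) for the 5 highest and the 5 lowest differences under the naming rule. Metal tolerance protein 4-like stands at 3.16 in N. glauca, and beta-carotene hydroxylase 2-like at -0.11 in N. glauca while the others lie between 1.496 and 4.94.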

How the data were processed

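RNA of hand-dissected nectaries was sequenced from TruSeq libraries as 50 bp paired-end reads, per the labels' protocols. The authors deposited 1 mean and 1 SD per group of 3 libraries for N. tabacum transcripts, in whole numbers treated here as the unit score, since the submitters' processing notes name DESeq and the values are normalized counts. The authors also deposited their own calls per comparison (unit other), without a threshold. The sources used here do not name the aligner, the counter or their versions. Values per library are not in the columns used, so depth is unknown, and the sums of means, 10180420 at stage 9 and 9723992 at stage 6, are not depths.

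limma 3.58.1 (R 4.3.3) was run from summary values: the log2 SD of a group was taken as SD/((mean + 1) ln 2), the 2 variances were averaged with 4 residual degrees of freedom, eBayes used a trend, and p-values were Benjamini-Hochberg adjusted over all transcripts tested. It is approximate. Transcripts at a mean of 50 or more in either stage were tested, with a pseudocount of 1. The fit was tested on simulated data with planted changes. For a locus the SD was the sum of its transcripts' SDs. The difference between profiles was called at adjusted p under 0.05 and a size of 1 or more. Its SE came from the spread between libraries within groups, not from the spread between species.

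Named transcripts are the 10 largest rises and 10 largest falls called with both means at 10 or more, SD under 0.5 of the mean and a description, 1 per locus; in each list the 2 highest and the 2 most changed; the leading transcript of textbook nectary genes; the 5 highest and 5 lowest differences between profiles, with the same filters in all 10 groups; and the 8 with the highest stage 9 mean. Further members of a list, chosen after their values were seen, are named to complete a pathway step. No tested transcript was listed at 0 in either stage. Members, lists and tests were chosen with earlier results of these data known, so lists are described by counts and medians with no test. List members were matched by Arabidopsis locus or description. Alternatives changed the pseudocount, minimum mean, scaling, SDs, degrees of freedom, trend, threshold and profiles.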

Additional observations from a re-analysis of the deposited data

Results flagged for a closer look

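The tested difference between N. glauca and the other nectary profiles in the stage 9 over stage 6 change was higher in N. glauca for 2069 transcripts and lower for 1508, or 956 and 1007 with a pseudocount of 10. Among described transcripts at 10 or more, with SDs under 0.5 of the mean, in all 10 groups, the largest differences upward were those of metal tolerance protein 4-like (XM_016623031.1, 4.001), UDP-glycosyltransferase 74B1-like (XM_016643318.1, 3.93), CYP89A9-like (XM_016578543.1, 3.37), nitrate reductase 2 (XM_016606716.1, 3.12) and CASP-like protein 5B2 (XM_016658936.1, 3.11), on the log2 scale. UDP-glycosyltransferase 74B1-like had 3273 (SD 28) at stage 9 and 636 (SD 38) at stage 6 in N. glauca, against 11 (SD 5) at stage 9 and 118 (SD 6) at stage 6 in N. rustica.

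The largest differences downward were those of beta-carotene hydroxylase 2-like (XM_016611556.1, -3.34), PTI1-like kinase 2 (XM_016590148.1, -2.73), trehalose-phosphate synthase 11 (XM_016593301.1, -2.67), DETOXIFICATION 24-like (XM_016589715.1, -2.60) and triacylglycerol lipase 2-like (XM_016597314.1, -2.52). DETOXIFICATION 24-like, a transporter of the MATE family, had 329 (SD 5) at stage 9 and 841 (SD 36) at stage 6 in N. glauca, against 649 (SD 66) at stage 9 and 174 (SD 5) at stage 6 in N. plumbaginifolia. All 10 differences kept their direction and call in each of the 9 alternatives run. These calls rest on the spread between libraries, not on the spread between species. Groups of 3 libraries are too small for a check of single outlying libraries.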

How the results depend on the processing

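No paired analysis was possible because the table gives means and SDs per group and no values per library, and for the same reason leaving out each library was not run. Of the 135 named transcripts, 121 kept direction and call in all alternatives run. The reversals were of uncalled transcripts: YABBY 5-like (XM_016602477.1) at -0.0228 with the median centred and -0.0328 with equal totals, nectarin-1-like (XM_016657282.1) at -0.0044 and -0.0141, and DEFICIENS-like (XM_016626143.1) at -0.0451 and -0.055 in the same order. Transcripts called numbered 970 when limma's treat required more than 2-fold, and 6361 in the authors' deposited table, against 12582. The 2-fold calls numbered 1140 at a minimum mean of 200, against 1913, with fewer transcripts tested. Differences between profiles numbered 1963 with a pseudocount of 10 and 618 at 10 or more in all groups, an alternative chosen after seeing the data, against 3577. The other counts stayed within 1.5 times. Of all calls 55.1% were higher at stage 9, against 49.2% with the median centred and 48.2% with equal totals. Depth is unknown, so counting precision could not be given.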

Other observations

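Transcripts of the protein synthesis machinery, a list chosen after the values were seen, were lower at stage 9. Of 260 tested transcripts described as cytosolic 40S or 60S ribosomal proteins, the structural proteins of the ribosome, 250 fell and 5 rose, with a median change of -0.96, beside 31.9% of all transcripts that fell. They made up 3.03% of the summed means at stage 9 and 6.15% at stage 6. Ribosomal protein S15-like (XM_016656498.1) had 3525 (SD 47) at stage 9 and 7756 (SD 386) at stage 6. Of 68 transcripts for the nucleolus and ribosome assembly 55 fell and 8 rose, beside 31.9% and 39.0% of all transcripts. Among the falls was nucleolin 1-like (XM_016596707.1), which acts in ribosomal RNA transcription, with 1373 (SD 33) at stage 9 and 4603 (SD 87) at stage 6. The same ribosomal protein transcripts, where they reached 50 in another profile, had median changes of -0.42 for N. benthamiana (215 transcripts), -1.13 for N. rustica (181), 0.08 for N. plumbaginifolia (182) and -0.51 for the joint profile (223).

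Some further groups were also chosen after their values were seen. Of 27 nitrogen assimilation transcripts 13 rose and 9 fell, beside 39.0% and 31.9% of all transcripts. The rises of 2-fold or more numbered 4, beside 5.63% of all transcripts. They included an asparaginase (XM_016600714.1), which frees ammonium from asparagine, with 14826 (SD 392) at stage 9 and 2188 (SD 157) at stage 6. Cytosolic glutamine synthetase (XM_016610836.1), which fixes ammonium, had 10438 (SD 111) at stage 9 and 5683 (SD 171) at stage 6. Of 26 transcripts described as UDP-glycosyltransferases or zeatin O-glycosyltransferases, which attach sugars to small molecules, 18 rose and 4 fell, beside 39.0% and 31.9% of all transcripts. Their summed means were 32434 at stage 9 and 11508 at stage 6. A zeatin O-glucosyltransferase-like transcript (XM_016581048.1) had 3025 (SD 79) at stage 9 and 177 (SD 15) at stage 6, a change of 4.09.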
